A study of Mus musculus with 18 samples.

Results

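The 28 genes described here cover cholesterol synthesis, sterol transport and uptake, and their control by SREBP-2. Members were the rows whose gene name equalled 1 of the 28 symbols, and all 28 were found among the 24539 genes that each library listed. They fell into 8 enzymes of the mevalonate and isoprenoid steps, 3 enzymes from squalene to lanosterol, 9 enzymes of the late sterol steps, 4 control genes and 4 genes of sterol transport and uptake. Liver RNA came from mice on a high-fat diet with lycopene, a carotenoid of tomatoes (HFD+LYC), on a high-fat diet alone (HFD) or on chow (control), with 3 livers per diet. All 9 animals were wild-type C57BL/6 males that started their diet at 8 weeks of age, stayed on it for 8 weeks and were 16 weeks old at sampling, per the labels. The labels state neither the lycopene dose nor the time of day or feeding state at sampling. Each liver gave 1 library of poly(A) RNA from total RNA (mRNA) and 1 of poly(A) RNA pelleted with ribosome-nascent chain complexes (RNC), which holds transcripts bound to ribosomes. The study set out to describe the RNA under translation in diet-induced fatty liver, and its design implies a diet comparison in each kind of library and a comparison of the RNC to mRNA ratio.

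Cells build cholesterol from acetyl-CoA through mevalonate, isoprenoid diphosphates, squalene and lanosterol. When sterols in the endoplasmic reticulum run low, the escort protein Scap carries SREBP-2, the product of Srebf2, to the Golgi, where it is cut into a transcription factor that turns on most genes of the route. When sterols are plentiful, Insig proteins hold Scap in the endoplasmic reticulum, and the liver, a main site of both synthesis and lipoprotein uptake, makes less.

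Levels are CPM, the reads of a gene scaled to a common library size with TMM factors, and each test is edgeR's quasi-likelihood test with Benjamini-Hochberg adjustment over all genes tested, called at an adjusted p under 0.05. The mRNA libraries listed 5806647 to 11613078 reads and the RNC libraries 4533729 to 12742436. The 3 HFD+LYC RNC libraries stood apart from the others: they held reads of 8940, 9567 and 10037 genes in replicates 1, 2 and 3, against 13324 to 14450 genes in HFD and control RNC libraries, and 632 to 895 genes with 1 to 10 reads against 2953 to 3178. The files do not say whether low counts were removed from these 3 libraries, so what a listed 0 stands for there is not known. HFD+LYC mRNA replicate 2 had 1896 genes with 1 to 10 reads, against 2843 to 3112 in the other mRNA libraries. All 8 hepatocyte markers were read in every group, with summed levels of 17388 to 77502 CPM in HFD+LYC, 43631 to 107099 CPM in HFD and 29686 to 108534 CPM in control mRNA. In bulk tissue, fewer cells of a type and less RNA per cell cannot be told apart.

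Promoter windows of 300 bases, from 250 before to 50 after the start of the gene, are given in the RefSeq table of GRCm38.p6 for 23 of the 28 members, and 5 are shown. Hmgcs1, Mvk, Idi1 and Msmo1 were each called lower in at least 1 diet comparison, and Insig1, called in none, is shown because its window holds the sterol element core. Hmgcs1 and Insig1 hold the core of a sterol element, and Mvk, Idi1 and Msmo1 do not. The windows are chr13:119690101-119690400, chr5:114444019-114444318, chr13:8885356-8885655 and chr5:28071162-28071461 on the plus strand, and chr8:64733529-64733828 on the minus strand. Each is written from 5′ to 3′ along its gene, and capitals mark CACNCCAC, the sterol element core, and CCAAT, the box bound by NF-Y, on either strand.
Hmgcs1: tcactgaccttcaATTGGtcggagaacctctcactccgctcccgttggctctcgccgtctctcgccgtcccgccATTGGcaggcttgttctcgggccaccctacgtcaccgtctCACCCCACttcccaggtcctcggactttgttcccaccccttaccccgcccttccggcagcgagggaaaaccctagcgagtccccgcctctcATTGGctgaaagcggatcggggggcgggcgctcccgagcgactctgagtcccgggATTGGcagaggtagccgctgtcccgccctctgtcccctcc
Mvk: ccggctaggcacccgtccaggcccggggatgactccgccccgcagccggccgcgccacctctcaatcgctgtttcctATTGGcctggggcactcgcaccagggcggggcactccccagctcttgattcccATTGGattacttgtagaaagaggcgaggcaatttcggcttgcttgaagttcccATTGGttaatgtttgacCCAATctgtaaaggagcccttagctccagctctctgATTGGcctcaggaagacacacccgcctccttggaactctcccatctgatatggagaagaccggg
Idi1: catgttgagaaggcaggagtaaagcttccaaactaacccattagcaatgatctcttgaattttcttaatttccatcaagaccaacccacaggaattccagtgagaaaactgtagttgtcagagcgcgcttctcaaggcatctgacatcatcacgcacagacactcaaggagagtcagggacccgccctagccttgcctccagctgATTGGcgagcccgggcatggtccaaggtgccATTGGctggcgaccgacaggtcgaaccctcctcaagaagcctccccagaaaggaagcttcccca
Msmo1: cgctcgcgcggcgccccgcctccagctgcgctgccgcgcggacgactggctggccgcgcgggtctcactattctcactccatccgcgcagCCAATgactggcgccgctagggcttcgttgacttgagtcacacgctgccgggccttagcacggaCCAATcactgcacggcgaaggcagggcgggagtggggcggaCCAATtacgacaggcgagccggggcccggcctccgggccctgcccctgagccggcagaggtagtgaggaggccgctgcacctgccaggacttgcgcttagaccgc
Insig1: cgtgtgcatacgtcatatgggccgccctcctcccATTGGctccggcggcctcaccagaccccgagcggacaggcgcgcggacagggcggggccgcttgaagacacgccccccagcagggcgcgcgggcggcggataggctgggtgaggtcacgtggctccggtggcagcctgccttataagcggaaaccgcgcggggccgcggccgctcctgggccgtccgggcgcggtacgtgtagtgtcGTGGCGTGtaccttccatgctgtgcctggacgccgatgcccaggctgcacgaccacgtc

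The 23 genes had 29 windows in that table. CACNCCAC, searched on both strands with no overlap between matches of the 2 marked motifs in these 5 windows, was found in 3 of the 29 windows, those of Hmgcs1, Insig1 and Acat2, and in 6.24% of all 32851 windows. CCAAT was found in 21 of the 29 windows and in 37.4% of all windows, and GGGCGG, the GC box, in 24 of the 29 and in 35.7% of all. In the Hmgcs1 window CACCCCAC starts 136 bases before the gene start, and in the Insig1 window GTGGCGTG, the motif on the other strand, starts 9 bases before it. The Mvk window holds CCAAT at 5 places, the Hmgcs1 window at 4, the Msmo1 window at 3 and the Idi1 window at 2. A match describes these letters and is not a measured binding site.

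In total liver RNA, the high-fat diet alone moved no gene of cholesterol synthesis past the threshold, while the summed level of its enzymes was lowest in the 3 livers with lycopene in the diet. In HFD against control mRNA, edgeR and DESeq2 each called 0 of the 28 members, against a background of 0.0158% of all genes called by edgeR. The members had a median log2 fold change of -0.16, beside -0.01 over all 12664 genes tested, with 19 of 28 below control. Only Mvk had an unadjusted p under 0.05, against 2.83% of all genes, and no member had groups that did not overlap, against 7.22% of all genes. The sign of that median rested on single livers: it was 0.22 without control replicate 1, 0.10 without HFD replicate 2 and -0.52 without HFD replicate 3.

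In HFD+LYC against HFD mRNA, 24 of 28 members lay below HFD, with a median log2 fold change of -0.82 beside -0.04 over all genes. edgeR called 0 of the 28, where 2.91% of all genes were called. An unadjusted p under 0.05 with a lower level was found for 12 of the 28, against 11.7% of all genes, and 8 of 28 were lower in all 3 HFD+LYC livers than in any HFD liver, against 15.2% of all genes. Scap was the 1 member higher in every HFD+LYC liver than in any HFD liver, against 16.7% of all genes. DESeq2 called 8 members lower (Hmgcs1, Idi1, Sqle, Cyp51, Msmo1, Nsdhl, Sc5d and Insig2), with adjusted p-values of 0.000608 for Hmgcs1 to 0.0304 for Msmo1, in a comparison in which it called 1491 of all genes. By edgeR, 3 members were called without control replicate 2 (Hmgcs1, Sqle and Insig2) and 1 without control replicate 1, and the median was -0.34 without HFD replicate 3.

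In HFD+LYC against control mRNA, Hmgcs1, Mvk, Sqle and Msmo1 fell, and 0 members rose. These 4 of 28 stand beside 5.54% of all genes called. All 20 enzymes of the route lay below control, and over the 28 members the median log2 fold change was -0.92, beside -0.05 over all genes. The 3 HFD+LYC livers lay below all 3 control livers for 15 of 28 members, against 13.7% of all genes, and 12 of these 15 were enzymes. The comparison with HFD and that with control use the same HFD+LYC livers. The 4 calls rested on few livers: 0 members were called without control replicate 1 or 3 or without HFD+LYC replicate 1 or 2, 1 without HFD replicate 1, 2 without HFD+LYC replicate 3 and 8 without HFD replicate 3. Over 14 alternatives the log2 fold change was -2.19 to -1.51 for Hmgcs1, -2.13 to -1.48 for Mvk, -3.19 to -2.28 for Sqle and -1.95 to -1.43 for Msmo1, with 0 reversed. DESeq2 called 10 members lower in this comparison, where it called 1628 of the 12664 genes tested.

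**Figure D1:**
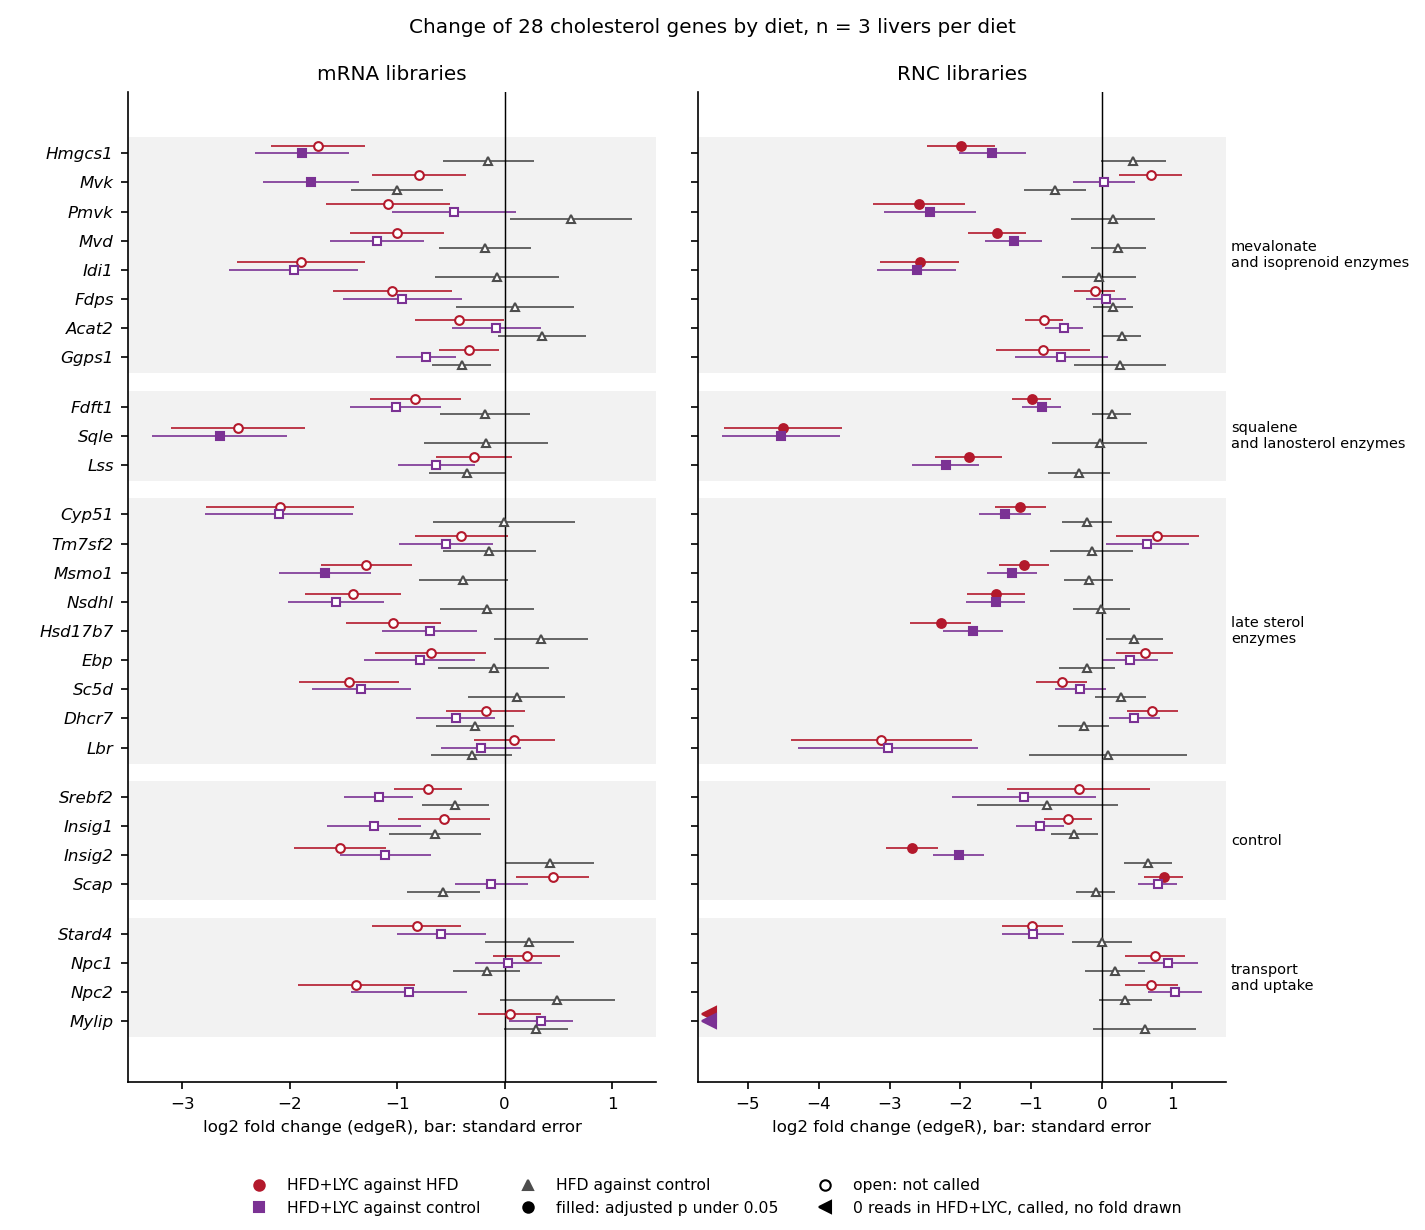
Log2 fold change with its standard error for the 28 genes, by role, in mRNA libraries (left) and RNC libraries (right), for HFD+LYC against HFD (circles), HFD+LYC against control (squares) and HFD against control (triangles). Filled symbols passed an adjusted p of 0.05. HFD against control has no filled symbol, and most HFD+LYC symbols lie left of 0, with 4 filled in mRNA and 27 in RNC, arrows counted. The 2 arrows at the left edge mark Mylip, which has 0 reads in HFD+LYC RNC, and show a call but no size.

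Among the enzymes that make mevalonate and isoprenoids, 8 of 8 lay below both HFD and control in HFD+LYC mRNA, and Hmgcs1 and Mvk were called against control. Hmgcs1, the cytosolic synthase that makes HMG-CoA (chromosome 13, 119690351 to 119708260), had 181, 177 and 266 CPM in HFD+LYC, 697, 509.7 and 872 CPM in HFD and 1129, 762 and 419 CPM in control livers. Every HFD+LYC liver lay below every other liver, and Hmgcs1 was 3.70-fold lower than in control (log2 fold change -1.89, SE 0.44, adjusted p = 0.0321), with a log2 fold change of -1.74 (SE 0.43, adjusted p = 0.0562) against HFD. Mvk, mevalonate kinase (chromosome 5, 114444264 to 114460591), had 8.40, 4.62 and 4.88 CPM in HFD+LYC, 7.65, 6.94 and 16.4 CPM in HFD and 29.2, 21.2 and 11.9 CPM in control livers. The HFD+LYC livers lay below every control liver (log2 fold change -1.80, SE 0.44, adjusted p = 0.0396) but overlapped HFD, and Mvk stood at -1.0 in HFD against control (unadjusted p = 0.0368, adjusted p = 1). For Hmgcs1, the call was lost without any 1 of 5 libraries (HFD+LYC replicates 1 and 2, HFD replicate 1 and control replicates 1 and 3), with adjusted p = 0.0511 to 0.125. For Mvk, the call was lost without any 1 of 7 libraries (HFD+LYC replicates 1, 2 and 3, HFD replicate 1 and control replicates 1, 2 and 3), with adjusted p = 0.0501 to 0.131.

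Idi1, the isopentenyl diphosphate isomerase (chromosome 13, 8885606 to 8892396), had 48.3, 14.1 and 46.4 CPM in HFD+LYC, 89.4, 64.8 and 249.8 CPM in HFD and 217, 98.0 and 110.2 CPM in control livers. All HFD+LYC livers lay below all others, with a log2 fold change of -1.89 (SE 0.60, adjusted p = 0.0963) against HFD and -1.96 (SE 0.60, adjusted p = 0.0783) against control. Mvd, the decarboxylase that makes isopentenyl diphosphate (chromosome 8, 122433596 to 122443422), had 12.7, 12.4 and 18.7 CPM in HFD+LYC, 31.3, 13.3 and 42.9 CPM in HFD and 46.5, 34.2 and 18.9 CPM in control livers, without overlap against control and with overlap against HFD. Pmvk, phosphomevalonate kinase (chromosome 3, 89454541 to 89469014), had 11.8, 16.0 and 13.7 CPM in HFD+LYC, 17.9, 10.9 and 59.2 CPM in HFD and 32.2, 14.7 and 10.5 CPM in control livers, and HFD replicate 3 stood above all other livers. Fdps, farnesyl diphosphate synthase (chromosome 3, 89093588 to 89101967), had 109, 72.0 and 156 CPM in HFD+LYC, 153, 108 and 434 CPM in HFD and 351, 155 and 146 CPM in control livers. HFD replicate 3 was again the highest, and the HFD+LYC livers overlapped both other diets.

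Acat2, the thiolase that starts the route (chromosome 17, 12943042 to 12960725), had 89.2, 72.9 and 99.8 CPM in HFD+LYC, 76.3, 75.8 and 199 CPM in HFD and 123, 68.1 and 85.6 CPM in control livers, with overlap in all comparisons. Its reads are uncertain where they are shared with the near-identical Acat3. Ggps1, which makes geranylgeranyl diphosphate (chromosome 13, 14049790 to 14063566), had 16.5, 16.2 and 14.1 CPM in HFD+LYC, 25.3, 16.3 and 17.3 CPM in HFD and 23.5, 33.2 and 21.1 CPM in control livers. Its HFD+LYC livers lay below all control livers by a small margin (log2 fold change -0.73, SE 0.28, adjusted p = 0.143).

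Of the 3 enzymes from squalene to lanosterol, Sqle changed most. Sqle, squalene epoxidase (chromosome 15, 59315092 to 59331193), had 6.78, 2.99 and 11.3 CPM in HFD+LYC, 24.3, 15.9 and 78.0 CPM in HFD and 64.7, 37.6 and 31.0 CPM in control livers. The highest HFD+LYC liver was below the lowest liver of the other diets, and Sqle was 6.28-fold lower than in control (log2 fold change -2.65, SE 0.63, adjusted p = 0.0354), with a log2 fold change of -2.48 (SE 0.62, adjusted p = 0.0567) against HFD. For Sqle, the call was lost without any 1 of 4 libraries (HFD+LYC replicates 1 and 2 and control replicates 1 and 3), with adjusted p = 0.0806 to 0.119. Fdft1, squalene synthase (chromosome 14, 63145150 to 63181687), had 51.0, 50.8 and 75.9 CPM in HFD+LYC, 78.8, 68.9 and 168 CPM in HFD and 180.2, 92.3 and 86.3 CPM in control livers, and HFD+LYC lay below every control liver but not below every HFD liver (log2 fold change -1.01, SE 0.42, adjusted p = 0.177 against control). Lss, lanosterol synthase (chromosome 10, 76531565 to 76557139), had 46.6, 28.8 and 35.7 CPM in HFD+LYC, 45.9, 25.6 and 63.7 CPM in HFD and 74.5, 50.4 and 47.6 CPM in control livers. It lay within the range of HFD and just below the lowest control liver. The gene models of Fdft1 and Ctsb and of Lss and 4930483K19Rik overlap, and strand use is not given, so reads from an overlap cannot be told apart.

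The 9 late sterol enzymes turn lanosterol into cholesterol, and all 9 lay below control in HFD+LYC mRNA. Msmo1, a methylsterol monooxygenase (chromosome 8, 64718123 to 64733578), had 34.3, 41.6 and 61.7 CPM in HFD+LYC, 101, 59.9 and 175 CPM in HFD and 191, 139 and 108 CPM in control livers, without overlap against control (log2 fold change -1.67, SE 0.43, adjusted p = 0.044). For Msmo1, the call was lost without any 1 of 6 libraries (HFD+LYC replicates 1, 2 and 3, HFD replicate 1 and control replicates 1 and 3), with adjusted p = 0.0543 to 0.159. Cyp51, the lanosterol demethylase (chromosome 5, 4080674 to 4104697), had 26.7, 7.06 and 42.1 CPM in HFD+LYC, 71.3, 45.8 and 207 CPM in HFD and 176, 67.7 and 81.8 CPM in control livers. Its HFD+LYC livers lay below all others, by a small margin against HFD (42.1 against 45.8 CPM), and spread widely among themselves. The log2 fold change of Cyp51 was -2.09 (SE 0.69, adjusted p = 0.106) against HFD and -2.10 (SE 0.69, adjusted p = 0.0968) against control. Nsdhl, a sterol dehydrogenase (chromosome X, 72918521 to 72958528), had 36.9, 24.2 and 49.7 CPM in HFD+LYC, 101, 58.3 and 135 CPM in HFD and 144, 131 and 54.0 CPM in control livers. Its HFD+LYC livers lay below all others (log2 fold change -1.41, SE 0.45, adjusted p = 0.0977 against HFD).

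Sc5d, the lathosterol oxidase (chromosome 9, 42251592 to 42264300), had 147, 110.1 and 221 CPM in HFD+LYC, 320.1, 270.0 and 712 CPM in HFD and 553, 362 and 289.6 CPM in control livers, again without overlap (log2 fold change -1.45, SE 0.46, adjusted p = 0.0998 against HFD). Hsd17b7, a ketosterol reductase (chromosome 1, 169949535 to 169969242), had 26.1, 12.5 and 21.1 CPM in HFD+LYC, 28.3, 21.9 and 72.1 CPM in HFD and 40.4, 26.0 and 30.3 CPM in control livers, and its diets overlapped. Ebp, the sterol isomerase (chromosome X, 8185329 to 8193512), had 135, 63.7 and 183 CPM in HFD+LYC, 167, 156 and 292 CPM in HFD and 356, 93.4 and 211 CPM in control livers. The spread within control, 3.81-fold from its lowest to its highest liver, was wider than the difference between diets.

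The remaining 3 late enzymes are sterol reductases and lay closer to the other diets. Dhcr7, the reductase that makes cholesterol from dehydrocholesterol (chromosome 7, 143823167 to 143848410), had 67.1, 54.3 and 83.0 CPM in HFD+LYC, 70.0, 49.7 and 111 CPM in HFD and 122, 94.4 and 63.9 CPM in control livers. Tm7sf2, a sterol reductase (chromosome 19, 6062821 to 6067850), had 48.8, 65.2 and 72.8 CPM in HFD+LYC, 65.4, 49.4 and 132 CPM in HFD and 143, 57.9 and 72.0 CPM in control livers, and its gene model overlaps Vps51. Lbr, the lamin B receptor, which carries the same reductase activity (chromosome 1, 181815315 to 181842401), had 7.52, 19.6 and 9.26 CPM in HFD+LYC, 10.6, 9.56 and 13.9 CPM in HFD and 11.6, 18.3 and 12.4 CPM in control livers. All 3 overlapped between diets, and Lbr was the 1 enzyme above HFD in HFD+LYC mRNA, at 0.09.

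**Figure D2:**
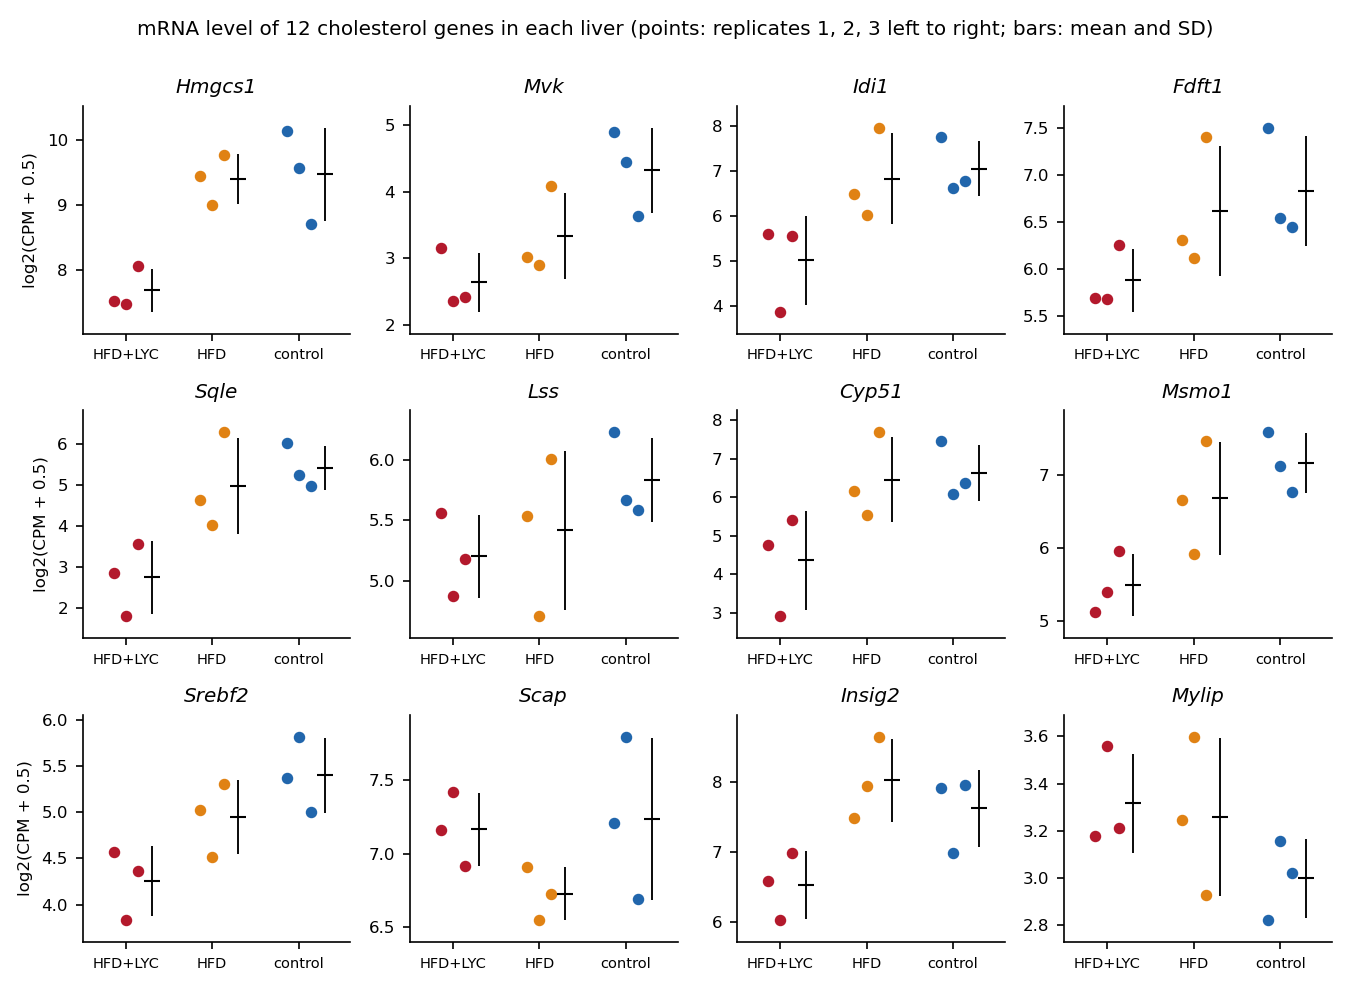
Level of 12 of the genes in each mRNA library, as log2 of CPM plus 0.5, with HFD+LYC, HFD and control livers from left to right. Points are replicates 1, 2 and 3, and the bars give the mean and SD (n = 3). Hmgcs1, Idi1, Sqle and Cyp51 in HFD+LYC lie below every HFD and control liver, and Scap in HFD+LYC lies above every HFD liver.

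All 4 control genes lay below control in HFD+LYC mRNA, and 0 of 4 were called. Srebf2, which encodes SREBP-2 (chromosome 15, 82147269 to 82205379), had 23.3, 13.7 and 20.1 CPM in HFD+LYC, 32.1, 22.3 and 39.0 CPM in HFD and 41.0, 55.9 and 31.6 CPM in control livers. It lay below every control liver in HFD+LYC (log2 fold change -1.17, SE 0.32, adjusted p = 0.0572), and its model contains Mir33, which the files list as a gene of its own. Insig1, a sterol-dependent anchor of Scap and itself a target of SREBP-2 (chromosome 5, 28071412 to 28078662), had 212, 224 and 234 CPM in HFD+LYC, 337, 176 and 479.7 CPM in HFD and 714, 306 and 537 CPM in control livers. The 3 HFD+LYC livers lay close together, below all control livers (log2 fold change -1.22, SE 0.43, adjusted p = 0.123) and within the range of HFD. Insig2, the second anchor (chromosome 1, 121304353 to 121332662), had 95.7, 64.4 and 126 CPM in HFD+LYC, 178, 245 and 402 CPM in HFD and 242, 127 and 248 CPM in control livers. It lay below all HFD livers (log2 fold change -1.53, SE 0.42, adjusted p = 0.0733) and below all control livers. Scap, the escort (chromosome 9, 110333288 to 110384949), had 143, 171 and 121 CPM in HFD+LYC, 119.9, 93.0 and 105 CPM in HFD and 147, 222 and 103 CPM in control livers. It was higher in each HFD+LYC liver than in any HFD liver (log2 fold change 0.45, SE 0.34, adjusted p = 0.426) but not than in control (-0.12).

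The 4 genes of sterol transport and uptake had no shared direction in mRNA. Stard4, a sterol carrier of the cytosol, had 54.5, 26.8 and 52.3 CPM in HFD+LYC, 68.8, 46.2 and 121 CPM in HFD and 85.1, 44.6 and 71.2 CPM in control livers. Npc1, the membrane protein that exports cholesterol from lysosomes, had 126, 73.1 and 110.1 CPM in HFD+LYC, 71.3, 94.0 and 103 CPM in HFD and 92.3, 84.7 and 124 CPM in control livers. Npc2, which hands cholesterol to Npc1 inside the lysosome (chromosome 12, 84754559 to 84773112), had 14.6, 14 and 17.1 CPM in HFD+LYC, 18.6, 29.7 and 70.5 CPM in HFD and 46.0, 10.1 and 28.6 CPM in control livers. HFD+LYC lay below every HFD liver for Npc2 (log2 fold change -1.38, SE 0.54, adjusted p = 0.154), while Stard4 and Npc1 overlapped in all comparisons. Mylip, a ubiquitin ligase that sends lipoprotein receptors to degradation (chromosome 13, 45389742 to 45411940), had 8.55, 11.3 and 8.78 CPM in HFD+LYC, 8.99, 11.6 and 7.11 CPM in HFD and 6.57, 8.41 and 7.62 CPM in control livers. Its HFD+LYC levels lay just above all control levels and within those of HFD (log2 fold change 0.34, SE 0.30, adjusted p = 0.505 against control).

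Per transcript length, the genes differed widely in level. In HFD+LYC mRNA Hmgcs1 stood at 58.2 ± 14 RPKM (reads scaled by transcript length and library, with TMM factors, mean ± SD, n = 3), against 194 ± 50.7 in HFD and 215 ± 99.2 in control livers. In control livers Hmgcs1 was followed by Insig1 at 196 ± 77.2, Sc5d at 179 ± 60.4 and Fdps at 174 ± 93.1 RPKM, which do not differ beyond their spread. Ebp came next at 126 ± 75.4 RPKM. The lowest were Mylip at 2.52 ± 0.309, Lbr at 3.97 ± 1.04 and Hsd17b7 at 7.06 ± 1.62 RPKM. In HFD+LYC livers Fdps led at 90.2 ± 34.0 RPKM, ahead of Insig1 at 84.4 ± 4.06, and Sqle came last at 2.56 ± 1.52 RPKM, against 14.3 ± 12.3 in HFD and 16.2 ± 6.51 in control livers.

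The enzymes also shared much of their order among livers on the same diet. The level of the 20 enzymes summed to 1110.2, 866 and 1486 CPM in HFD+LYC, 2182, 1637 and 4051 CPM in HFD and 4006, 2357 and 1911 CPM in control mRNA replicates 1, 2 and 3. The HFD+LYC livers lay below all others. Among HFD livers, replicate 3 was the highest for 19 of 20 enzymes and replicate 2 the lowest for 20 of 20. Among control livers replicate 1 was the highest for 18 of 20, and among HFD+LYC livers replicate 2 was the lowest for 15 of 20. How many of all genes had these orders was not counted. The TMM factors of mRNA replicates 1, 2 and 3 were 1.03, 1.27 and 0.899 in HFD+LYC and 0.990, 1.14 and 0.872 in HFD. In control they were 0.845, 1.12 and 0.911, and the part of this scaling in the orders was not tested. From the lowest to the highest liver of a diet the enzymes spanned a median of 1.81-fold in HFD+LYC, 2.63-fold in HFD and 2.15-fold in control mRNA. In RNC the sums were 2084, 1047 and 1134 CPM in HFD+LYC, 2208, 2222 and 2838 CPM in HFD and 2431, 2613 and 1492 CPM in control libraries, where control replicate 3 was the lowest of its diet for 18 of 20 enzymes and lay below HFD+LYC replicate 1. HFD+LYC RNC replicate 1 had a TMM factor of 0.428, against 0.836 to 1.34 in the other RNC libraries. A low factor raises every level of a library, so its sum depends on this scaling.

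**Figure D3:**
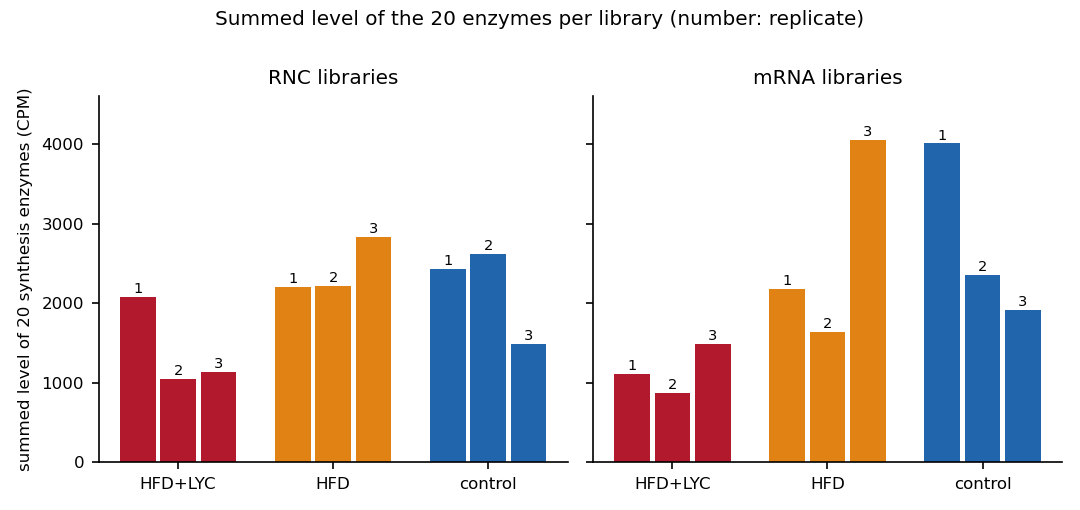
Summed level of the 20 synthesis enzymes in each library, in CPM, for RNC (left) and mRNA (right), with HFD+LYC, HFD and control from left to right and the replicate number above each bar. In mRNA the HFD+LYC bars reach 866 to 1486 CPM and all others 1637 CPM or more; in RNC control replicate 3 overlaps HFD+LYC.

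Clock genes and some cell type markers moved with these levels. Over 15 clock genes, chosen with earlier results of these data known, mRNA levels summed to 1456 to 2051 CPM in HFD+LYC, 428 to 761 CPM in HFD and 304 to 535 CPM in control livers. Against HFD, 5 of the 15 were called higher and 2 lower in HFD+LYC mRNA, and against control 7 were called higher and 3 lower. The 11 Kupffer cell markers summed to 214 to 367 CPM in HFD+LYC, 320.1 to 671 CPM in HFD and 228 to 417 CPM in control mRNA, and the 5 cholangiocyte markers to 31.7 to 49.9, 137 to 178 and 141 to 166 CPM in HFD+LYC, HFD and control mRNA. The cholangiocyte sums of HFD+LYC lay below all others, while Kupffer cell sums overlapped.

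Of the other 5 marker lists, 4 overlapped between diets in mRNA. The 6 stellate cell markers summed to 90.2 to 218, 191 to 305 and 197 to 279 CPM in HFD+LYC, HFD and control mRNA, and the 6 sinusoidal endothelium markers to 181 to 203, 156 to 189 and 137 to 186 CPM. The 5 erythroid markers summed to 657 to 1180.2, 258 to 747 and 411 to 774 CPM, and the 5 skeletal muscle markers to 0.610 to 2.21, 0.889 to 2.05 and 0.551 to 0.762 CPM. In each of these 4 lists HFD+LYC overlapped both HFD and control. The 4 T and B lymphocyte markers summed to 0.679 to 2.93 CPM in HFD+LYC, below all control livers at 3.45 to 5.46 CPM and overlapping HFD at 2.48 to 6.37 CPM. Markers at 0 in a whole diet were found in skeletal muscle alone, with 2 of 5 in HFD+LYC (Ckm and Myh4), 1 in HFD and 4 in control mRNA. The part of the clock genes and of these cell types in the cholesterol results was not tested.

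Other genes of the pathway lay on both sides of 0 in mRNA, and their difference from the 28 members was not tested. Of 48 listed genes of sterol sensing, mevalonate branches, electron supply, esterification and efflux, 46 were tested, and in HFD+LYC against HFD 1 was called higher and 0 lower, where 2.91% of all genes were called, with a median log2 fold change of -0.14. Against control, 1 was called higher and 0 lower, where 5.54% of all genes were called, with a median of -0.06. Por, the reductase that feeds electrons to Cyp51 and Sqle, rose at a log2 fold change of 2.24 (SE 0.38, adjusted p = 0.0161) against HFD. Syvn1, a ubiquitin ligase of the endoplasmic reticulum, stood at 1.85 (SE 0.57, adjusted p = 0.093), and Rnf145, a sterol-responsive ligase, at 0.70 (SE 0.32, adjusted p = 0.201). Lipa, the lysosomal lipase that frees cholesterol, stood at -1.14 (SE 0.38, adjusted p = 0.109), and Gramd1a, a sterol transporter to the endoplasmic reticulum, at 1.05 (SE 0.45, adjusted p = 0.179). Pggt1b, a subunit of a protein prenyltransferase, stood at -2.25 (SE 0.76, adjusted p = 0.111), and Pdss2, of the enzyme that makes the ubiquinone tail, at -1.62 (SE 0.52, adjusted p = 0.1). Abcg5, a sterol exporter to bile, stood at 1.44 (SE 0.70, adjusted p = 0.228), Abca1, which loads cholesterol on apolipoproteins, at -0.71 (SE 0.35, adjusted p = 0.237), and Cyb5b, a cytochrome of the outer mitochondrial membrane, at -1.05 (SE 0.44, adjusted p = 0.17). Of these 10, only Por passed. In RNC, 4 of the 46 were called higher and 9 lower in HFD+LYC against HFD, beside 26.8% of all genes called, and 7 higher and 10 lower against control, beside 26.3%.

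In ribosome-bound RNA the high-fat diet alone again moved none of the genes past the threshold. edgeR and DESeq2 each called 0 of the 28 members in HFD against control RNC, and 0.00858% of all 11660 genes tested were called by edgeR. At an unadjusted p under 0.05 there were 0 members, against 1.84% of all genes. The median log2 fold change was 0.05, beside 0.01 over all genes, with 15 members above control and 13 below. That median turned below 0 without control replicate 3 (-0.07) and without HFD replicate 3 (-0.16). Insig2 had the smallest p, at 0.66 (SE 0.34, adjusted p = 1). Mvk and Srebf2 were lower and Mylip higher in every HFD library than in any control library, and none of these 3 passed. Groups that did not overlap, in either direction, were found for 14.2% of all genes.

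In HFD+LYC livers 13 of the 28 genes fell in ribosome-bound RNA against HFD, and 13 against control. They were Hmgcs1, Pmvk, Mvd, Idi1, Fdft1, Sqle, Lss, Cyp51, Msmo1, Nsdhl, Hsd17b7, Insig2 and Mylip, and all 13 were called in both comparisons, which share the HFD+LYC libraries. Scap rose against HFD and was the 1 member called higher. The 14 of 28 called against HFD stand beside 26.8% of all genes, and the 13 of 28 against control beside 26.3%. The median log2 fold change was -0.99 against HFD, beside -0.29 over all genes, and -1.04 against control, beside -0.28. All 3 HFD+LYC libraries lay below all others of the comparison for 13 members against HFD, beside 28.1% of all genes, and for 16 against control, beside 30.6%.

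These RNC results rest on the 3 libraries with fewer genes read. Leaving out HFD+LYC replicate 1, 2 or 3 gave 13, 17 and 11 members called against HFD and 12, 18 and 11 against control. Without HFD replicate 3 the count against HFD was 6, and without control replicate 1 or 2 the count against control was 6 and 5. The share of all genes called is not given for these fits without a library, so the counts describe the members alone. A fit of the 7267 genes with a read in every RNC library, a limit chosen after seeing the data, held 24 members and left out Sqle, Srebf2, Lbr and Mylip. It called 12 members lower and 1 higher against HFD, of which 11 lower ones were called before too, and 10 lower and 2 higher against control, with 34.7% of all these genes called in each comparison and a median of 0.11 over them. Acat2 was added against HFD (adjusted p = 0.0446), and against control Fdft1 was lost (adjusted p = 0.0541) and Scap and Npc2 were higher (adjusted p = 0.0398 and 0.042). With only the compared libraries in the fit, 7 members were called in each comparison.

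Cell type markers and clock genes moved with the RNC results too. The RNC sums of 6 stellate cell markers were 40.6 to 63.3 CPM in HFD+LYC, 172 to 220.4 CPM in HFD and 132 to 210.4 CPM in control libraries, and those of 6 sinusoidal endothelium markers were 27.0 to 35.9, 78.9 to 96.6 and 75.0 to 87.7 CPM in HFD+LYC, HFD and control libraries. The 11 Kupffer cell markers summed to 153 to 216, 282 to 499 and 247 to 284 CPM in HFD+LYC, HFD and control RNC. For these 3 lists all HFD+LYC libraries lay below all others. The 5 cholangiocyte markers summed to 14.7 to 20.5, 18.8 to 38.9 and 23.5 to 27.7 CPM, below control without overlap and overlapping HFD. The 5 erythroid markers summed to 516 to 805, 351 to 1024 and 687 to 1390.0 CPM, and the 4 T and B lymphocyte markers to 1.74 to 6.62, 2.40 to 3.01 and 1.67 to 3.44 CPM, with Cd79a and Ms4a1 at 0 in HFD+LYC. The 5 skeletal muscle markers summed to 0 to 8.28, 0.380 to 1.11 and 0.310 to 1.23 CPM, with 4 of 5 at 0 in HFD+LYC (Ckm, Myh4, Mylpf and Tnnt3), 4 in HFD and 1 in control. These 3 lists overlapped between diets. The 8 hepatocyte markers summed to 84582 to 292023, 64924 to 101888 and 84063 to 101499 CPM in HFD+LYC, HFD and control RNC. The 15 clock genes summed to 333 to 460.3, 164 to 194 and 129 to 169 CPM in HFD+LYC, HFD and control RNC, with Npas2 at 0 in HFD+LYC. The part of these in the result was not tested.

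In the mevalonate and isoprenoid steps, 4 of 8 enzymes fell in RNC against both diets. Of all genes, 26.8% were called against HFD and 26.3% against control, and differences between steps of the route were not tested. Hmgcs1 had 243, 226 and 129 CPM in HFD+LYC, 942, 586 and 849.7 CPM in HFD and 742, 784 and 221 CPM in control livers. Control replicate 3 lay within the HFD+LYC range, and Hmgcs1 was 3.98-fold lower than in HFD (log2 fold change -1.99, SE 0.48, adjusted p = 0.0124), with a log2 fold change of -1.55 (SE 0.47, adjusted p = 0.0368) against control. In the comparison with control, the call was lost without any 1 of 6 libraries (HFD+LYC replicate 3, HFD replicates 1, 2 and 3 and control replicates 1 and 2), with adjusted p = 0.0504 to 0.138. Idi1 had 40.8, 8.63 and 16.2 CPM in HFD+LYC, 89.6, 125 and 174 CPM in HFD and 138, 181 and 80.2 CPM in control livers, with all HFD+LYC libraries below all others (log2 fold change -2.57, SE 0.56, adjusted p = 0.00776 against HFD). Pmvk had 0.621, 3.45 and 5.09 CPM in HFD+LYC, 11, 17.7 and 27.5 CPM in HFD and 17.2, 21.5 and 11.7 CPM in control livers, and HFD+LYC replicate 1 was the lowest (log2 fold change -2.59, SE 0.65, adjusted p = 0.0152 against HFD). The call was lost without HFD replicate 3 (adjusted p = 0.0685). Mvd had 5.59, 4.99 and 9.77 CPM in HFD+LYC, 27.2, 12.7 and 17.5 CPM in HFD and 16.3, 18.4 and 13.8 CPM in control livers, without overlap (log2 fold change -1.48, SE 0.41, adjusted p = 0.0231 against HFD). The call was lost without HFD replicate 1 or HFD replicate 3 (adjusted p = 0.0767 and 0.0584). Against control, Pmvk stood at -2.43 (SE 0.65, adjusted p = 0.0204), and the call was lost without control replicate 1 or control replicate 2 (adjusted p = 0.0551 and 0.0749). Mvd stood at -1.24 (SE 0.40, adjusted p = 0.0472) against control, and the call was lost without any 1 of 6 libraries (HFD+LYC replicates 1 and 2, HFD replicate 3 and control replicates 1, 2 and 3), with adjusted p = 0.0706 to 0.147.

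The other 4 of these enzymes did not pass in RNC. Fdps had 221, 127 and 139.9 CPM in HFD+LYC, 165, 143 and 216 CPM in HFD and 174, 170.3 and 125 CPM in control livers, and the diets overlapped. Mvk had 12, 10.9 and 7.5 CPM in HFD+LYC, 3.65, 8.61 and 6.43 CPM in HFD and 10.5, 10.3 and 9.0 CPM in control livers, with a log2 fold change of 0.03 (SE 0.44, adjusted p = 0.972) in RNC against -1.80 in mRNA, both in HFD+LYC against control. Acat2 had 41.6, 58.3 and 47.1 CPM in HFD+LYC, 55.7, 100.4 and 103 CPM in HFD and 67.9, 73.0 and 72.5 CPM in control livers, at -0.82 (SE 0.27, adjusted p = 0.0501) against HFD. Ggps1 had 1.86, 1.92 and 6.96 CPM in HFD+LYC, 7.62, 5.69 and 6.09 CPM in HFD and 6.96, 4.61 and 4.58 CPM in control livers, and the diets overlapped.

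All 3 enzymes from squalene to lanosterol fell in RNC, beside 26.8% of all genes called against HFD and 26.3% against control. Sqle had 4.35, 0 and 1.07 CPM in HFD+LYC, 29.9, 40.0 and 49.8 CPM in HFD and 34.6, 57.8 and 29.5 CPM in control livers, with 0 reads listed in HFD+LYC replicate 2, a 0 whose meaning is not known. Its fitted log2 fold change was -4.51 (SE 0.83, adjusted p = 0.00461) against HFD and -4.54 (SE 0.83, adjusted p = 0.0046) against control, and it kept the call without each library in turn. Lss had 13.2, 3.26 and 6.16 CPM in HFD+LYC, 26.4, 23.8 and 33.0 CPM in HFD and 38.2, 41.6 and 24.3 CPM in control livers. All HFD+LYC libraries lay below all others, and Lss was 3.69-fold lower than in HFD (log2 fold change -1.88, SE 0.47, adjusted p = 0.015), where its mRNA stood at -0.28. The call was lost without HFD replicate 3 (adjusted p = 0.0579). Fdft1 had 65.0, 49.5 and 36.7 CPM in HFD+LYC, 76.4, 108 and 116 CPM in HFD and 97.2, 102 and 73.4 CPM in control livers, without overlap but with a small margin (log2 fold change -0.99, SE 0.28, adjusted p = 0.0261 against HFD). The call was lost without HFD+LYC replicate 3 or HFD replicate 2 or HFD replicate 3 (adjusted p = 0.0601, 0.0822 and 0.104). Against control, the call was lost without any 1 of 7 libraries (HFD+LYC replicates 2 and 3, HFD replicates 2 and 3 and control replicates 1, 2 and 3), with adjusted p = 0.0619 to 0.16.

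Of the 9 late sterol enzymes, 4 fell in RNC against HFD, beside 26.8% of all genes called. Hsd17b7 had 6.21, 13.4 and 5.36 CPM in HFD+LYC, 27.3, 41.2 and 51.9 CPM in HFD and 24.5, 39.0 and 24.2 CPM in control livers, the largest fall of the 4 (log2 fold change -2.28, SE 0.43, adjusted p = 0.00487 against HFD). Nsdhl had 32.1, 14.6 and 18.1 CPM in HFD+LYC, 61.0, 50.2 and 71.0 CPM in HFD and 89.5, 61.0 and 32.4 CPM in control livers (log2 fold change -1.50, SE 0.41, adjusted p = 0.024 against HFD). The call was lost without HFD+LYC replicate 3 or HFD replicate 1 or HFD replicate 3 (adjusted p = 0.0622, 0.0554 and 0.0833). Cyp51 had 63.5, 30.1 and 35.9 CPM in HFD+LYC, 63.5, 90.4 and 134 CPM in HFD and 118, 128 and 87.8 CPM in control livers, where HFD+LYC replicate 1 reached the lowest HFD library (log2 fold change -1.15, SE 0.36, adjusted p = 0.0414 against HFD). For Cyp51 against HFD, the call was lost without any 1 of 7 libraries (HFD+LYC replicates 2 and 3, HFD replicates 2 and 3 and control replicates 1, 2 and 3), with adjusted p = 0.0563 to 0.171. Msmo1 had 63.1, 49.9 and 24.6 CPM in HFD+LYC, 79.7, 98.9 and 114 CPM in HFD and 108, 140.0 and 84.7 CPM in control livers (log2 fold change -1.09, SE 0.35, adjusted p = 0.046 against HFD). For Msmo1 against HFD, the call was lost without any 1 of 8 libraries (HFD+LYC replicates 2 and 3, HFD replicates 1, 2 and 3 and control replicates 1, 2 and 3), with adjusted p = 0.0525 to 0.15.

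Against control the same 4 late enzymes fell, with all HFD+LYC libraries below all control libraries. Of all genes, 26.3% were called in this comparison and 30.6% were lower without overlap. Cyp51, the demethylase, stood at -1.37 (SE 0.36, adjusted p = 0.0205), and the call was lost without HFD+LYC replicate 3 or control replicate 1 or control replicate 2 (adjusted p = 0.055, 0.0599 and 0.0744). Msmo1, the methylsterol oxidase, stood at -1.27 (SE 0.35, adjusted p = 0.0247), and the call was lost without control replicate 1 or control replicate 2 (adjusted p = 0.0604 and 0.102). Nsdhl stood at -1.50 (SE 0.41, adjusted p = 0.0239), and the call was lost without HFD+LYC replicate 3 or control replicate 1 or control replicate 2 (adjusted p = 0.0615, 0.0958 and 0.0661). Hsd17b7 stood at -1.82 (SE 0.43, adjusted p = 0.0113), and the call was lost without control replicate 2 (adjusted p = 0.0507).

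The other 5 late enzymes did not pass in RNC, and 3 of them stood above both diets in the fit. Ebp had 524, 137 and 311 CPM in HFD+LYC, 190.3, 206 and 242 CPM in HFD and 259.8, 244 and 234 CPM in control livers, Tm7sf2 had 257, 34.1 and 75.9 CPM in HFD+LYC, 52.3, 74.2 and 85.9 CPM in HFD and 87.7, 68.8 and 78.1 CPM in control livers, and Dhcr7 had 108, 53.1 and 59.7 CPM in HFD+LYC, 53.0, 34.0 and 47.5 CPM in HFD and 66.4, 60.7 and 33.2 CPM in control livers. For each of these 3, HFD+LYC replicate 1 held the highest level of the 9 libraries, and Dhcr7 was higher in every HFD+LYC than in any HFD library (log2 fold change 0.72, SE 0.36, adjusted p = 0.185). All levels of HFD+LYC replicate 1 are scaled by its low TMM factor of 0.428, and its 10 most-read genes held 47.3% of its reads. Sc5d had 379, 218 and 198 CPM in HFD+LYC, 243, 451 and 485 CPM in HFD and 329, 401 and 248 CPM in control livers, with overlap. Lbr had 0, 2.11 and 0 CPM in HFD+LYC, 4.61, 5.06 and 8.35 CPM in HFD and 6.08, 6.6 and 4.27 CPM in control livers, with 0 reads listed in 2 of the 3 HFD+LYC libraries, where the meaning of a 0 is not known. It missed the threshold against HFD (adjusted p = 0.105), and DESeq2 called it (adjusted p = 0.0176).

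**Figure D4:**
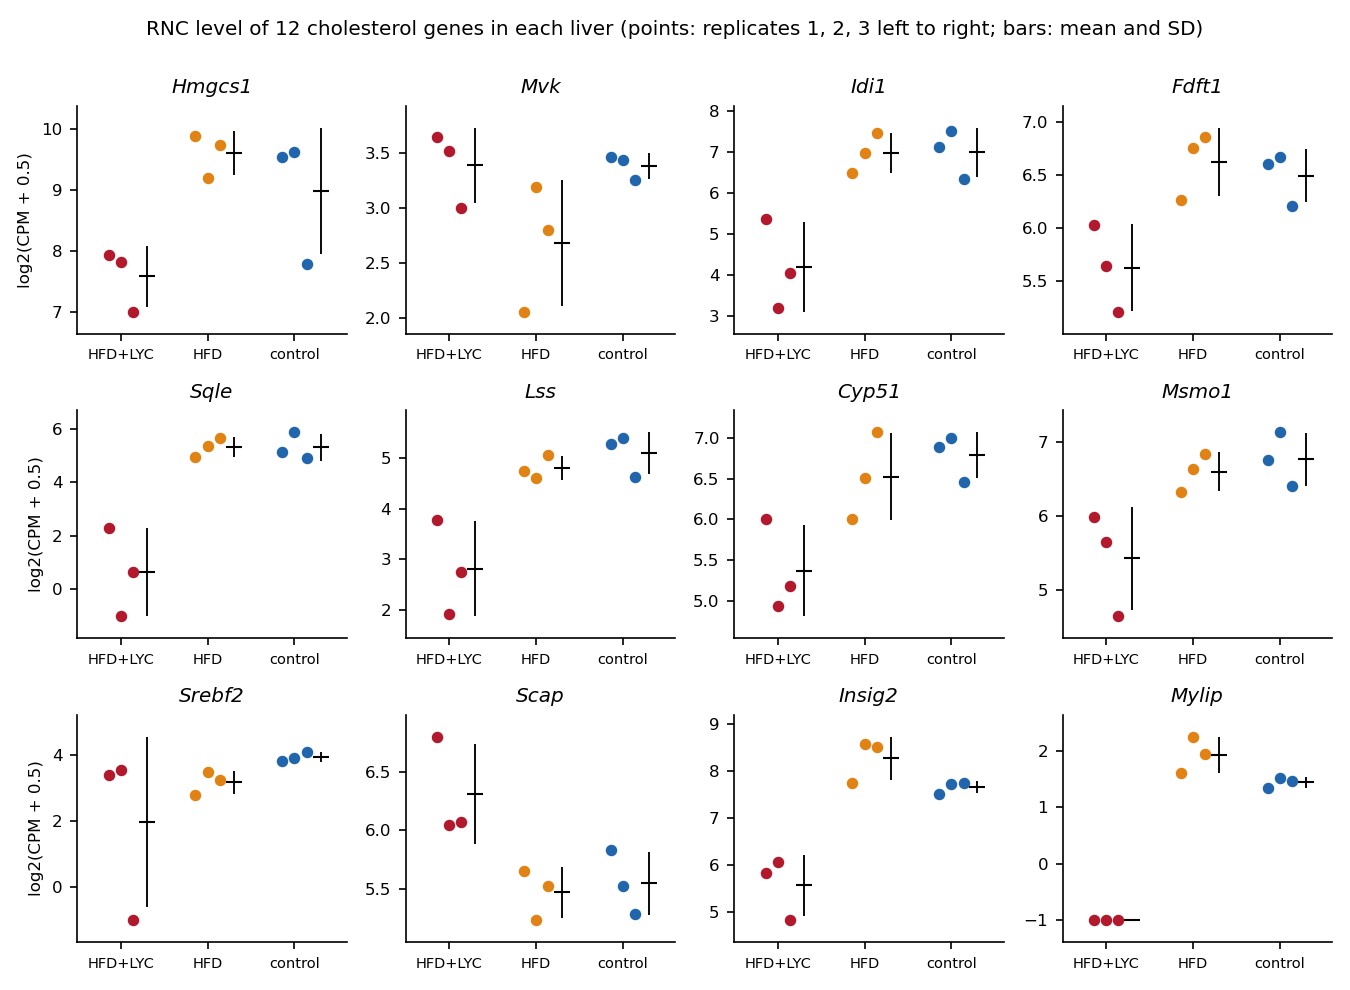
Level of the same 12 genes in each RNC library, as log2 of CPM plus 0.5, with HFD+LYC, HFD and control from left to right. Points are replicates 1, 2 and 3 and the bars give the mean and SD (n = 3); a point at -1 is a library with 0 reads. Sqle, Lss, Idi1, Insig2 and Mylip in HFD+LYC lie below every other library, and Scap lies above every HFD and control library.

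Among the control genes, Insig2 had the smallest p of all members in both RNC comparisons. Insig2 had 55.7, 65.6 and 27.6 CPM in HFD+LYC, 213, 377 and 362 CPM in HFD and 182, 209 and 214 CPM in control livers. Its highest HFD+LYC library was below every HFD and control library, and it was 6.41-fold lower than in HFD (log2 fold change -2.68, SE 0.36, adjusted p = 0.00117) and 4.07-fold lower than in control (log2 fold change -2.02, SE 0.36, adjusted p = 0.00387). Scap had 111, 65.6 and 66.8 CPM in HFD+LYC, 49.9, 37.0 and 45.6 CPM in HFD and 56.3, 45.5 and 38.6 CPM in control livers, higher in every HFD+LYC library than in any other, and 1.84-fold higher than in HFD (log2 fold change 0.88, SE 0.28, adjusted p = 0.0421). For Scap, the call was lost without any 1 of 7 libraries (HFD+LYC replicate 1, HFD replicates 1, 2 and 3 and control replicates 1, 2 and 3), with adjusted p = 0.06 to 0.156. Insig1 had 141, 244 and 176 CPM in HFD+LYC, 314, 152 and 316 CPM in HFD and 391, 363 and 269 CPM in control livers, below control without overlap and not called (log2 fold change -0.87, SE 0.34, adjusted p = 0.0912). Srebf2 had 9.93, 11.1 and 0 CPM in HFD+LYC, 6.35, 10.6 and 9.03 CPM in HFD and 13.5, 14.5 and 16.5 CPM in control livers, with 0 reads listed in HFD+LYC replicate 3. Both HFD+LYC and HFD libraries lay below every control library for Srebf2, and neither difference passed. The log2 fold change against control was -1.10 (SE 1.02, adjusted p = 0.488) in HFD+LYC and -0.77 (SE 1.00, adjusted p = 1) in HFD.

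For transport and uptake, Mylip stood apart. Mylip was listed at 0 reads in all 3 HFD+LYC RNC libraries, against 2.54, 4.24 and 3.35 CPM (132 reads in all) in HFD and 2.03, 2.38 and 2.25 CPM (82 reads) in control libraries. It was called lower than in HFD (adjusted p = 0.00405) and than in control (adjusted p = 0.00515). No fold is given, since low counts are scarce in these 3 libraries and what their 0 stands for is not known. The mRNA of the same HFD+LYC livers held 8.55, 11.3 and 8.78 CPM of Mylip. Stard4 had 36.4, 52.7 and 14.7 CPM in HFD+LYC, 51.0, 68.4 and 84.7 CPM in HFD and 51.1, 91.9 and 60.8 CPM in control livers, with overlap. Npc1 had 169, 45.7 and 81.4 CPM in HFD+LYC, 44.0, 68.5 and 63.0 CPM in HFD and 62.5, 42.3 and 49.8 CPM in control livers, and Npc2 had 85.5, 42.2 and 46.7 CPM in HFD+LYC, 20.5, 50.9 and 35.6 CPM in HFD and 24.7, 29.8 and 30.7 CPM in control livers. Npc2 was higher in each HFD+LYC library than in any control library (log2 fold change 1.03, SE 0.38, adjusted p = 0.0739).

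The RNC level of each gene relative to its mRNA level was compared with both kinds of library in one fit of 12872 genes. Both levels are scaled reads, so the ratio is relative to other genes and does not measure the share of a transcript bound to ribosomes. Both libraries of a liver came from 1 animal, but this fit had no term for the liver and treated them as independent. Results with the liver as a block are given as an alternative. In HFD against control, edgeR and DESeq2 called 0 of 28 members for a ratio change, and 0% of all genes were called by edgeR. At an unadjusted p under 0.05 there were 0 members, against 0.155% of all genes. The median log2 change of the ratio was 0.15, beside 0.02 over all genes, and it was 0.59 without HFD mRNA replicate 3 and -0.16 without HFD mRNA replicate 2.

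In HFD+LYC against HFD, the ratio fell for Lbr and Mylip, 2 of 28 members beside 16.4% of all genes. The median log2 change of the ratio was -0.19 over the members and -0.41 over all genes. The median of the members was 0.12 without HFD mRNA replicate 2 and 0.03 without HFD+LYC mRNA replicate 3. The log2 ratio of RNC to mRNA for Mylip was -3.75, -4.08 and -3.80 in HFD+LYC, -0.76, -0.45 and -0.12 in HFD and -0.66, -0.75 and -0.74 in control livers, on the scale of log2 of CPM plus 0.5, where the HFD+LYC values are set by the listed 0 RNC reads (adjusted p = 0.000185). For Lbr it was -3.58, -2.13 and -3.87 in HFD+LYC, -0.21, 0.05 and 0.20 in HFD and 0.02, -0.47 and -0.57 in control livers (adjusted p = 0.0498). Every HFD+LYC liver lay below every other liver for both genes. For Lbr, 0 RNC reads were listed in HFD+LYC replicates 1 and 3 and 11 in replicate 2. The values of replicates 1 and 3 are thus set by the listed 0 too, and what it stands for is not known. Mylip kept its call without each library in turn, while Lbr lost it in 15 of 18 such fits and kept it without each HFD+LYC RNC library. Without HFD+LYC RNC replicate 1, 4 members were called, with Sqle and Lss added.

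With the liver as a block, Lss was called too, at an adjusted p of 0.0265 against 0.0738 without it. The Lss ratio was -0.89, -2.12 and -1.58 in HFD+LYC, 0.18, 0.85 and 0.00 in HFD and -0.02, 0.70 and -0.04 in control livers. The Npc2 ratio was 3.39, 2.43 and 2.31 in HFD+LYC, 1.10, 1.72 and -0.04 in HFD and 0.05, 2.47 and 1.02 in control livers (log2 fold change 2.02, SE 0.73, adjusted p = 0.0695), and DESeq2 called it (adjusted p = 0.0204). The ratio of Mvk was 1.35, 1.98 and 1.40 in HFD+LYC, -0.07, 1.20 and -0.38 in HFD and -0.51, -0.05 and 0.50 in control livers, higher in every HFD+LYC liver than in any other (log2 fold change 1.41, SE 0.66, adjusted p = 0.159). For Sqle it was 0.24, -2.39 and -2.17 in HFD+LYC, 1.26, 2.25 and 0.30 in HFD and 0.05, 1.59 and 0.85 in control livers and for Hmgcs1 1.33, 1.24 and -0.15 in HFD+LYC, 1.42, 1.17 and 0.91 in HFD and 0.34, 1.03 and 0.01 in control livers, and neither passed.

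Within a diet, RNC was set against mRNA. In HFD+LYC livers 8 members were higher in RNC (Mvk, Fdps, Cyp51, Tm7sf2, Ebp, Sc5d, Dhcr7 and Npc2) and 4 lower (Ggps1, Lss, Lbr and Mylip). These 12 of 28 are near the share over all genes, of which 43.4% were called. Ggps1 lost its call in 19 of 23 alternatives, and the other members called lost theirs in 0 to 5. Mylip has listed 0 RNC reads in all HFD+LYC libraries and Lbr in replicates 1 and 3. What a 0 stands for there is not known. Ebp stood at 2.25 (SE 0.53, adjusted p = 0.00254), Npc2 at 2.83 (SE 0.55, adjusted p = 0.000669), Sc5d at 1.63 (SE 0.44, adjusted p = 0.0067) and Lss at -1.40 (SE 0.44, adjusted p = 0.0174) on the log2 scale. The median over the members was 0.34, beside -0.51 over all genes. With the liver as a block, Tm7sf2 lost its call (adjusted p = 0.0722). Without HFD+LYC mRNA replicate 1 the count was 7, and with only HFD+LYC libraries in the fit it was 5.

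In HFD livers edgeR called 0 of 28 members between RNC and mRNA, beside 0.101% of all genes. DESeq2 also called 0 of 28, in a comparison in which it called 1114 of all genes. By edgeR, 3 members were higher in RNC at an unadjusted p under 0.05, against 8.29% of all genes. The median log2 difference of the members was 0.59, beside -0.05 over all genes. Insig2 stood at 1.17 (SE 0.40, adjusted p = 0.134). Without HFD mRNA replicate 3, Fdft1 and Hsd17b7 were called, and the median was 1.24. In control livers edgeR called 0 of 28, beside 2.13% of all genes. DESeq2 called 2181 genes in this comparison, among them 2 of the 28 members, Scap and Ggps1, both lower in RNC (adjusted p = 0.0374 and 0.00732). An unadjusted p under 0.05 was found for 3 members higher and 2 lower in RNC, against 11.1% and 16.1% of all genes. The median log2 difference was 0.55 in control livers, beside -0.07 over all genes, with 20 of 28 above 0. With DESeq2's size factors in edgeR the median of all genes moved to -0.21 in control and -0.18 in HFD livers, and that of the members to 0.42 and 0.50. The ratio of Ggps1 was -2.04, -1.98 and -0.12 in HFD+LYC, -0.72, -0.52 and -0.53 in HFD and -0.78, -1.78 and -1.21 in control livers, below 0 in all 9 livers.

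**Figure D5:**
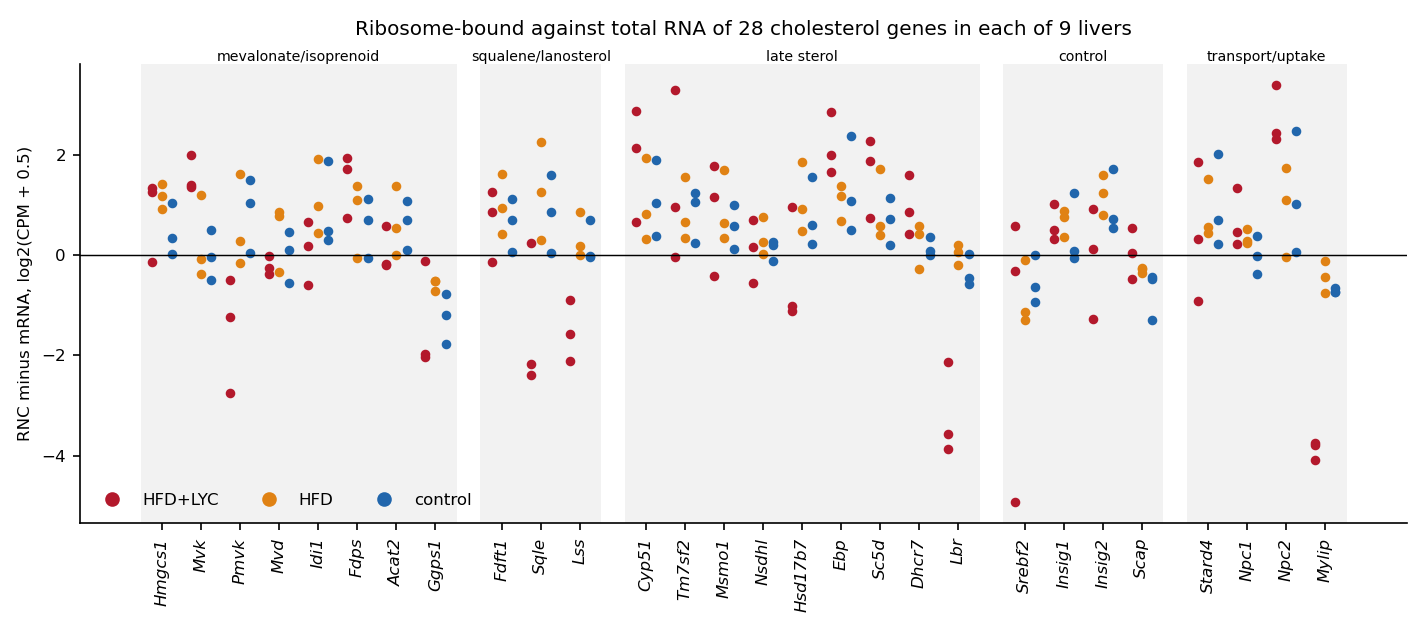
RNC minus mRNA, as the difference of log2 of CPM plus 0.5, for the 28 genes in each of the 9 livers, with HFD+LYC, HFD and control from left to right within a gene and genes grouped by role. Lbr and Mylip in HFD+LYC lie between -2.13 and -4.08, below every HFD and control liver, and most other genes overlap between diets. In HFD+LYC, Mylip has listed 0 RNC reads in replicates 1, 2 and 3 and Lbr in replicates 1 and 3.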

How the data were processed

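Libraries of poly(A) RNA from 9 mouse livers, 1 from total RNA and 1 from pelleted ribosome-nascent chain complexes each, were analysed from 1 deposited table per library. The authors mapped reads to RefSeq RNA sequences, merged splice variants and deposited for each gene its read count, the longest transcript length and an RPKM value, per the file headers and the series' design text. bcl2fastq and mm10 are named in the submitters' processing notes, with aligner and strand not given in the sources used here. Tests used the deposited count values, and the deposited RPKM values were compared with the levels computed here.

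Counts were normalised with TMM and tested with edgeR 4.0.16 (robust quasi-likelihood, R 4.3.3, limma 3.58.1) after filterByExpr with a minimum count of 10 and a minimum total of 15, calling an adjusted p under 0.05. The mRNA fit held 12664 genes with 6 residual degrees of freedom, the RNC fit 11660 genes with 6, and the fit of all 18 libraries 12872 genes with 12. All 28 members passed each filter. Overlap between groups and ratios per liver used log2 of CPM plus 0.5. DESeq2 1.42.0, other size factors, no filter, a replicate block, only the compared groups and leaving out each library were alternatives. The functions were tested on simulated data. Libraries were grouped by the labels, which call them biological replicates. The mRNA and RNC library of a liver share an animal code in the deposited file names, so the liver pairs them, while across diets replicates share only a number. The main fits held no block for liver or replicate number. The deviations of the 2 libraries of a liver correlated at -0.04 to 0.56, above 0.1 in 3 of 9 livers. An mRNA and an RNC library of different livers on the same diet correlated at -0.56 to 0.41, above 0.1 in 3 of 18 pairs. Symbols matched RefSeq GRCm38.p6 for 23720 of 24539 genes and for all 28 members. The members and gene lists were chosen with earlier results of these data known. All 28 members are given with values, and other pathway genes are the 2 with the smallest p in HFD+LYC against HFD mRNA in each of 5 lists.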

Additional observations from a re-analysis of the deposited data

Results flagged for a closer look

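For Lbr and Mylip the difference between RNC and mRNA was not the same in HFD+LYC as in HFD livers, by edgeR's test of the interaction of diet and library kind. The adjusted p was 0.0498 for Lbr, with 0 RNC reads in HFD+LYC replicates 1 and 3, and 0.000185 for Mylip, with 0 RNC reads in all 3 HFD+LYC replicates. The files do not say whether low counts were removed from these RNC libraries, so what these 0 values stand for is not known.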

How the results depend on the processing

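The count of members called depended on the tool and on single libraries. In mRNA, HFD+LYC against HFD gave 8 members with DESeq2 and 2 with no filter, against 0, and HFD+LYC against control gave 10 with DESeq2, against 4. With only the compared groups in the fit, RNC gave 7 in each HFD+LYC comparison, the ratio change in HFD+LYC against HFD gave 1, also with no filter, and RNC against mRNA gave 2 in control and 5 in HFD+LYC livers, with 2 by DESeq2 in control livers. The cause was not tested. With the replicate number as a block, a number that the labels tie to no shared animal or batch, 6 members were called in HFD+LYC against HFD and 10 in HFD+LYC against control mRNA, and in RNC 11 and 12. Counts with a block or without a library are given without the share of all genes called in the same fit. They describe the members alone and were not compared with other genes. Deviations of same-numbered livers of different diets correlated above 0.1 in 7 of 9 pairs in mRNA (-0.44 to 0.49), against 4 of 18 pairs of different number, and in 2 of 9 pairs in RNC, and 4 of 9 mRNA and 3 of 9 RNC libraries correlated best with one of their own number. With the liver as a block, which pairs the libraries of a liver, the ratio change gave 3 and RNC against mRNA in HFD+LYC livers 11. Leaving out each library in turn gave 0 to 3 members in HFD+LYC against HFD and 0 to 8 in HFD+LYC against control mRNA, 6 to 17 and 5 to 18 in the same RNC comparisons, 1 to 4 for the ratio change in HFD+LYC against HFD, and 7 to 12, 0 to 2 and 0 to 1 for RNC against mRNA in HFD+LYC, HFD and control livers. It moved the median log2 change of the ratio in HFD against control between -0.16 and 0.59, and the median of RNC against mRNA in HFD livers between 0.34 and 1.24. In the 4 HFD+LYC diet comparisons the median of the members stayed below 0 under every alternative run. Over all genes, DESeq2 called 1491 in HFD+LYC against HFD mRNA, against 368 by edgeR, and 1628 against 701 in HFD+LYC against control; in HFD against control it called 41 against 2 in mRNA and 33 against 1 in RNC; in RNC against mRNA it called 2181 against 274 in control and 1114 against 13 in HFD livers. With only the compared groups, RNC gave 1790 genes against 3120 in HFD+LYC against HFD and 2032 against 3072 in HFD+LYC against control. The limit to genes with a read in every RNC library was chosen after seeing the data. For Sqle, Srebf2, Lbr and Mylip, what a listed 0 stands for in HFD+LYC RNC is not known.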
